A study of Saccharomyces cerevisiae with 6 samples.

Results

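The subunits of the nuclear RNA polymerases of budding yeast are described here in cultures treated with paraquat. Their genes were taken from a list of 31 names, 7 of RNA polymerase I (Pol I), 7 of Pol II, 10 of Pol III, 2 of subunits shared by Pol I and III and 5 of subunits shared by all 3 enzymes. Of the 31 genes, 29 were matched to a probe, 1 each, and 27 had a value on all 3 arrays, among 5693 features tested. RPO21 and RPO31, the genes of the largest subunits of Pol II and Pol III, were not matched to a named probe and were not analysed here. RPC53 and RPC82 had values on 2 arrays each.

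Strain S288C, a haploid laboratory strain, was grown exponentially in YPD, a rich glucose medium, at 25 °C. Treated cultures received 35 ppm paraquat (methyl viologen, a compound that passes electrons to oxygen and so makes superoxide) for 2 h, and the untreated cultures were kept for the same time without it. Each of 3 arrays carried Cy5-labelled cDNA of a treated culture and Cy3-labelled cDNA of an untreated one, from poly(A) RNA, and was read at high and at low laser power. High power gave a value for 5730 to 6006 probes and low power for 2496 to 4076. The 2 readings of an array were averaged, so n is 3 arrays of independent biological samples. No dye swap was used, so dye and treatment cannot be told apart.

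Values are log2 ratios. A value above 0 is read as more mRNA after paraquat, which is the likely direction because the treated culture is channel 1 in the labels. No source gives the direction or the base of the logarithm, and with the opposite direction each sign below would turn. The cultures were measured in bulk and each array was normalised to lie around 0, so a change of total mRNA per cell is not visible, and fewer cells with a transcript and less of it per cell cannot be told apart.

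Pol I makes the large ribosomal RNA precursor, Pol II makes mRNA, and Pol III makes tRNA, the 5S ribosomal RNA and other short RNAs. The 3 enzymes are built on one plan. The 2 largest subunits form the cleft with the active site, a pair of alpha-like subunits joins them, a stalk reaches out beside the RNA exit, a zinc-ribbon subunit lies at the rim, and 5 small subunits are the same polypeptides in all 3 enzymes. Pol I and Pol III also carry built-in relatives of general factors that Pol II recruits from outside. In growing yeast the genes for Pol I and Pol III subunits are known to be regulated together with those for ribosome assembly.

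No subunit gene passed the test, and the measured means were modest in both directions. By limma with Benjamini-Hochberg adjustment over all features, 0 of 27 subunit genes were called at an adjusted p under 0.05, where 0.0351% of all features were called. The smallest adjusted p among them was 0.269, for RPB11. At an unadjusted p under 0.05 the same fit gave 5 subunit genes above 0 (RPB11, RPC11, RPC10, RPB8 and RPC17), or 18.5%, beside 5.48% of all features, and 1 below 0 (RET1), or 3.70%, beside 5.29%. With 3 arrays an exact test over signs cannot give a two-sided p below 0.25 for a single gene. On simulated arrays the same fit called 16.8% of changes of 0.5 on the log2 scale, so most changes of that size were missed there.

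Of the 27, 18 (66.7%) had a mean above 0 and 9 below, beside 49.2% of all features above 0. That 49.2% is also the background for the later counts of means above 0. The median of the 27 means was 0.18, beside -0.00654 over all tested features. The value was above 0 on all 3 arrays for 10 subunit genes, or 37.0%, beside 16.0% of all features. It was below 0 on all 3 arrays for 4, or 14.8%, beside 16.0% of all features. Of the 27 means, 14 lay at or above the 75th percentile of all features and 6 below the 25th. These counts moved with the processing. After an additive trend over the digits of the probe number had been removed from each array, 6 subunit genes (22.2%) stayed above 0 on every array beside 14.2% of all features, and 2 genes, RPB11 and RPC10, were above 0 at an unadjusted p under 0.05, or 7.41%, beside 4.32% of all features in that fit.

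**Figure D1:**
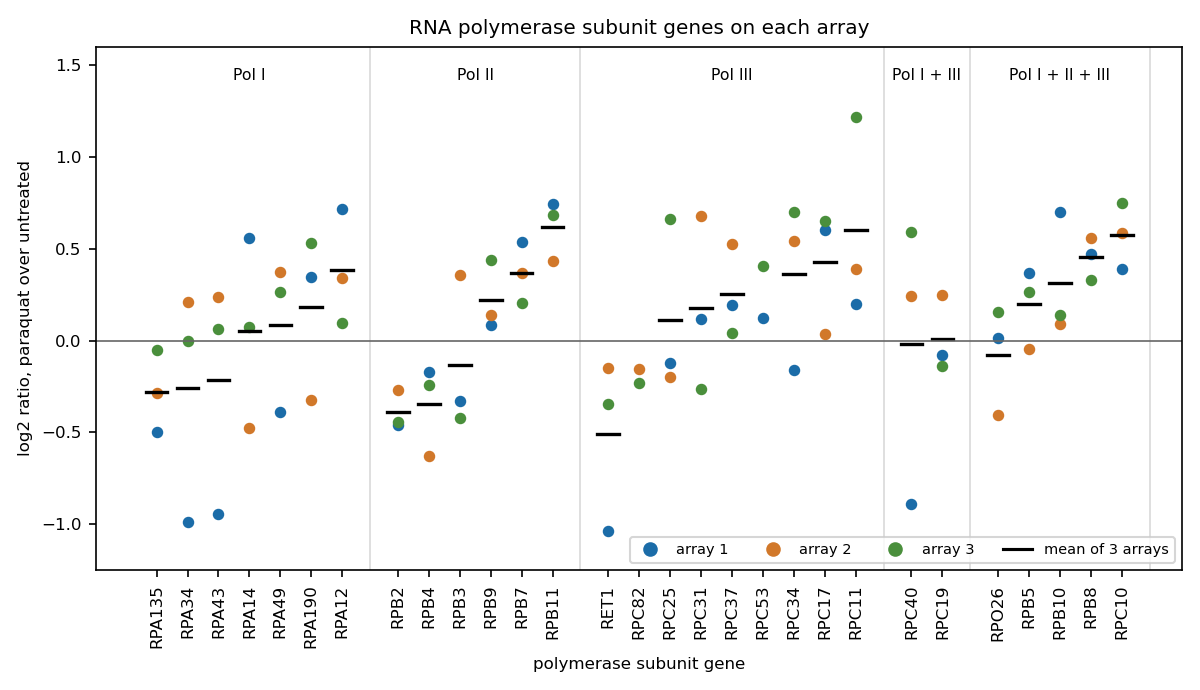
Log2 ratio (vertical axis) of each subunit gene (horizontal axis) on the 3 arrays (points) with the mean of 3 arrays (bar; none for RPC82 and RPC53, which lack 1 array). RPB11, RPB8 and RPC10 have 3 points close together above 0, and RPA34, RPA43 and RPC40 have 1 point, array 1, far below the other 2.

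**Figure D2:**
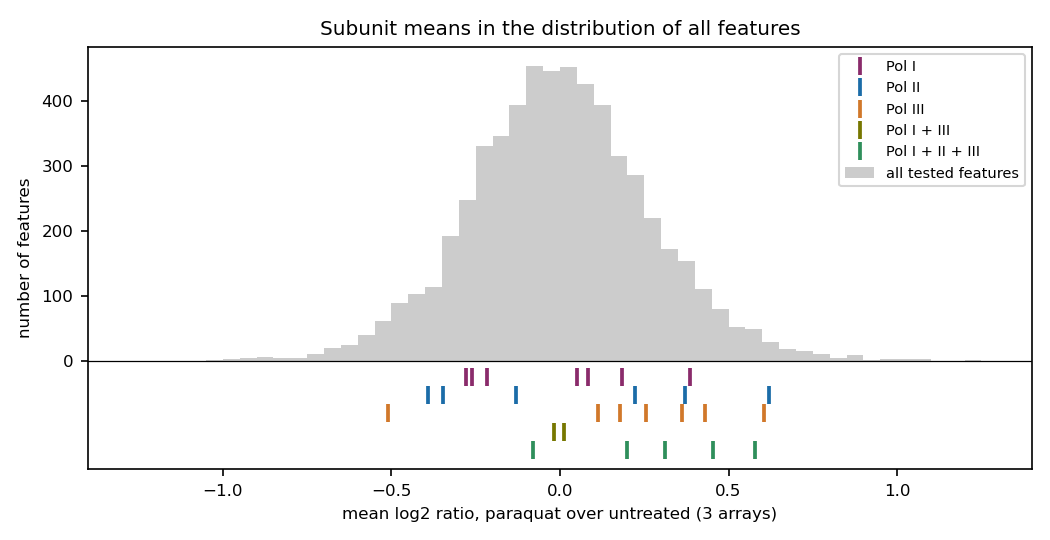
Number of features (vertical axis) by mean log2 ratio over 3 arrays (horizontal axis) for all tested features (grey bars), with the mean of each subunit gene as a tick below, by enzyme. Subunit means run from -0.51 (RET1) to 0.62 (RPB11), inside the range of all features.

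The highest mean belonged to RPB11 (YOL005C), which encodes one of the alpha-like subunits of Pol II and pairs with Rpb3. RPB11 was at 0.74, 0.43 and 0.68 on arrays 1, 2 and 3, and its mean was 0.62 ± 0.17 (SD, n = 3 arrays), or 1.54-fold (95% interval of the limma fit 0.21 to 1.03, limma adjusted p = 0.269). All 3 array values were above 0, but array 2 read 0.20 at high and 0.66 at low power. Array 1 had a high power reading alone. On high power scans alone the mean of RPB11 was 0.50. Leaving out any 1 array kept its mean between 0.56 and 0.71, and with the probe number trend removed it was 0.62. Its partner RPB3, which starts the assembly of Pol II together with it, was at -0.33, 0.36 and -0.42, with a mean of -0.13 ± 0.43 (SD, n = 3 arrays). RPB11 minus RPB3 was 1.07, 0.07 and 1.10 on the 3 arrays, so the genes of this pair lay apart on arrays 1 and 3 and together on array 2.

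Among the other Pol II subunits, the genes of the stalk pair had opposite signs on every array. RPB7, whose product binds the emerging RNA, was at 0.54, 0.37 and 0.20, with a mean of 0.37 ± 0.17 (SD, n = 3 arrays, limma adjusted p = 0.521). RPB4, its partner and a subunit that can leave the enzyme, was at -0.17, -0.63 and -0.24, with a mean of -0.35 ± 0.25 (SD, n = 3 arrays, limma adjusted p = 0.555). RPB7 exceeded RPB4 by 0.71, 1.00 and 0.44 on the 3 arrays, and by 0.37, 0.64 and 0.30 with the trend removed, where the mean of RPB7 was 0.19. RPB2, the second-largest subunit, was at -0.46, -0.27 and -0.44, with a mean of -0.39 ± 0.11 (SD, n = 3 arrays, limma adjusted p = 0.482), and RPB9, the zinc-ribbon subunit involved in start site choice and fidelity, was at 0.09, 0.14 and 0.44, with a mean of 0.22 ± 0.19 (SD, n = 3 arrays), or 0.11 without array 3. The 6 measured Pol II genes lay on both sides of 0, with 3 means above and 3 below and a median of 0.04.

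The Pol III genes were mostly above 0. Of the 7 tested, 6 had a mean above 0, beside 49.2% of all features, and the median of the 7 was 0.25. With the probe number trend removed, 6 means stayed above 0. The Pol III medians on arrays 1, 2 and 3 were then -0.04, 0.10 and 0.40. RPC11 (YDR045C), the zinc-ribbon subunit needed for RNA cleavage and for reinitiation, was at 0.20, 0.39 and 1.22, with a mean of 0.60 ± 0.54 (SD, n = 3 arrays, limma adjusted p = 0.302). Array 3 was far above the other 2, and without it the mean was 0.30; with the probe number trend removed it was 0.31. RPC17, a stalk subunit, was at 0.60, 0.03 and 0.65, with a mean of 0.43 ± 0.34 (SD, n = 3 arrays, limma adjusted p = 0.463), and 0.17 with the trend removed. Arrays 1 and 3 carried that mean and array 2 was near 0.

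RPC34, which contacts the initiation factor TFIIIB, was at -0.16, 0.54 and 0.70, with a mean of 0.36 ± 0.46 (SD, n = 3 arrays). That mean was 0.62 without array 1, 0.19 without array 3 and 0.23 with the trend removed. RPC31, its companion in the same subcomplex, was at 0.12, 0.68 and -0.26, so the sign of RPC31 differed between arrays. RPC37, whose product pairs with Rpc53 and acts in termination, was at 0.20, 0.53 and 0.04, with a mean of 0.25 ± 0.25 (SD, n = 3 arrays) that was 0.12 without array 2 and 0.11 with the trend removed. RPC25, the second stalk subunit, was at -0.12, -0.20 and 0.66, a mean of 0.11 that array 3 alone put above 0. RPC53 was measured at 0.12 on array 1 and 0.41 on array 3, and RPC82, the largest member of the Rpc31 and Rpc34 subcomplex, at -0.16 on array 2 and -0.23 on array 3.

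Of the 7 Pol III genes with 3 arrays, and so without RPC82, only RET1 (YOR207C), the second-largest subunit, had a mean below 0. RET1 also had the lowest mean of all 27. It was at -1.04, -0.15 and -0.35, with a mean of -0.51 ± 0.47 (SD, n = 3 arrays), or 0.70 of the untreated level (95% interval of the limma fit -0.95 to -0.07, limma adjusted p = 0.395). Array 1, with a high power reading alone, was far below the other 2, and without it the mean was -0.25. With the trend removed the mean was -0.27.

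The Pol I genes were spread around 0 and their arrays differed. Of the 7, 4 had a mean above 0, and the median was 0.05. RPA12, the zinc-ribbon subunit that carries the RNA cleavage activity of Pol I, was at 0.72, 0.34 and 0.10, with a mean of 0.38 ± 0.31 (SD, n = 3 arrays, limma adjusted p = 0.516), above 0 on every array, and 0.22 without array 1. RPA135, the second-largest subunit, was at -0.50, -0.29 and -0.05, below 0 on every array, with a mean of -0.28 ± 0.22 (SD, n = 3 arrays) and -0.07 with the trend removed. RPA190, the largest subunit, was at 0.35, -0.33 and 0.53, with a mean of 0.19 ± 0.45 (SD, n = 3 arrays) that was 0.44 without array 2 and 0.01 without array 3. RPA14, a stalk subunit, was at 0.56, -0.48 and 0.07.

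Array 1 stood apart for the other Pol I genes. RPA34 and RPA49, which form the pair related to TFIIF, were at -0.99, 0.21 and -0.00412, and at -0.39, 0.37 and 0.26. RPA43, the stalk subunit that binds the initiation factor Rrn3, was at -0.94, 0.24 and 0.06. The same held for RPC40, an alpha-like subunit shared by Pol I and III, at -0.89, 0.24 and 0.59. Array 1 gave the lowest value of the 3 arrays for each of these 4 genes, and without it the means of RPA34, RPA43 and RPC40, which were -0.26, -0.22 and -0.02 over 3 arrays, became 0.10, 0.15 and 0.42. RPC19, the partner of RPC40, did not share this difference, at -0.08, 0.25 and -0.14. On array 1, RPA43, RPA49 and RPC19 had a high power reading alone.

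The genes for nucleolar ribosome assembly factors, a list of 23 of which 22 were tested, lay low on the same array. Their medians were -0.50, 0.18 and -0.00531 on arrays 1, 2 and 3, beside -0.39, 0.21 and 0.07 for the Pol I subunits and 0.01, 0.03 and -0.02 for all tested features. With the probe number trend removed, array 1 gave -0.44 for the ribosome assembly list and -0.13 for the Pol I subunits. The Pol III subunits had a median of 0.12 on array 1, and of -0.04 there with the trend removed. What moved the ribosome assembly list and the Pol I subunits on array 1 was not tested.

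**Figure D3:**
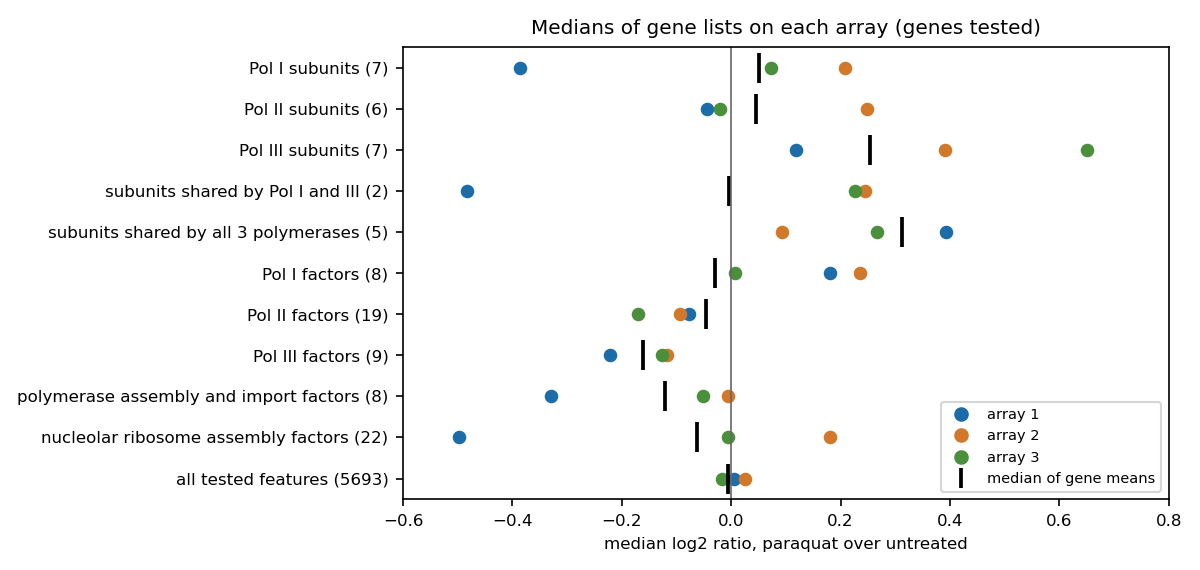
Median log2 ratio (horizontal axis) of each gene list on the 3 arrays (points) and the median of the gene means (bar), with the number of genes tested in brackets. On array 1 the medians of the Pol I subunits (-0.39), the subunits shared by Pol I and III (-0.48) and the ribosome assembly factors (-0.50) lie far left of arrays 2 and 3. The -0.48 comes from 2 unlike genes, RPC40 at -0.89 and RPC19 at -0.08, and 3 of the 7 Pol I genes were above 0 on array 1.

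The subunits common to all 3 enzymes had the highest median of the 5 groups of subunits, 0.31, with 4 of 5 means above 0. Without array 1 it was 0.12, below the 0.28 of the Pol III subunits. RPC10 (YHR143W-A), also called RPB12, a very small zinc-binding subunit, was at 0.39, 0.59 and 0.75, with a mean of 0.58 ± 0.18 (SD, n = 3 arrays), or 1.49-fold (95% interval of the limma fit 0.17 to 0.99, limma adjusted p = 0.295). RPB8 (YOR224C), a small subunit on the outer face of the enzymes, was at 0.47, 0.56 and 0.33, with a mean of 0.45 ± 0.11 (SD, n = 3 arrays), or 1.37-fold (limma adjusted p = 0.408). Both genes were above 0 on every array, and stayed so with the trend removed, at 0.50 and 0.35. RPB10, another small zinc-binding subunit at the base of the assembly, was at 0.70, 0.09 and 0.14, with a mean of 0.31 ± 0.34 (SD, n = 3 arrays) that was 0.12 without array 1. RPB5, part of the jaw that grips DNA, was at 0.37, -0.04 and 0.27, with a mean of 0.20 that was -0.01 with the trend removed. RPO26, also called RPB6 and placed at the foot of the stalk, was at 0.01, -0.40 and 0.15, so that it lay on both sides of 0.

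The 3 enzymes were compared by the medians of their own subunits on each array. The Pol III median exceeded that of Pol II by 0.16, 0.14 and 0.67 on arrays 1, 2 and 3 and that of Pol I by 0.51, 0.18 and 0.58. The Pol I median differed from that of Pol II by -0.34, -0.04 and 0.09, a sign that was not the same on all arrays. The median of the subunits common to all enzymes lay above that of Pol II on arrays 1 and 3, by 0.44 and 0.29, and differed from it by -0.16 on array 2. With the trend removed the Pol III median was 0.19, beside 0.03 for Pol I, -0.06 for Pol II and 0.20 for the common subunits. On array 2 the order then turned, with a Pol III median of 0.10 beside 0.21 for Pol I and 0.19 for Pol II. These are descriptions of a few genes on 3 arrays, no test of a list was made, and RPO31 and RPO21 are missing from them.

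Grouped by position in the enzyme instead, 2 positions had one sign in all 3 enzymes. The second-largest subunits RPA135, RPB2 and RET1 were below 0 in 9 of 9 array values. The zinc-ribbon subunits RPA12, RPB9 and RPC11 were above 0 in 9 of 9. Of all features, 16.0% were below 0 on all 3 arrays and 16.0% above. Within each enzyme the zinc-ribbon gene exceeded the second-largest gene on every array, by 1.22, 0.63 and 0.15 in Pol I, 0.55, 0.41 and 0.88 in Pol II and 1.24, 0.54 and 1.57 in Pol III. With the trend removed, 7 of 9 values of the second-largest subunits were below 0 and 7 of 9 of the zinc-ribbon subunits above 0. The differences then averaged 0.44, 0.48 and 0.59 in Pol I, II and III. In Pol I the difference was then 0.71, 0.62 and -0.02 on arrays 1, 2 and 3, and in Pol II and III it stayed above 0 on each array. The 9 values of a position come from the same 3 arrays, and this grouping was read from the values without a test. At the Rpb4-like stalk position, RPA14, RPB4 and RPC17 averaged 0.05, -0.35 and 0.43.

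**Figure D4:**
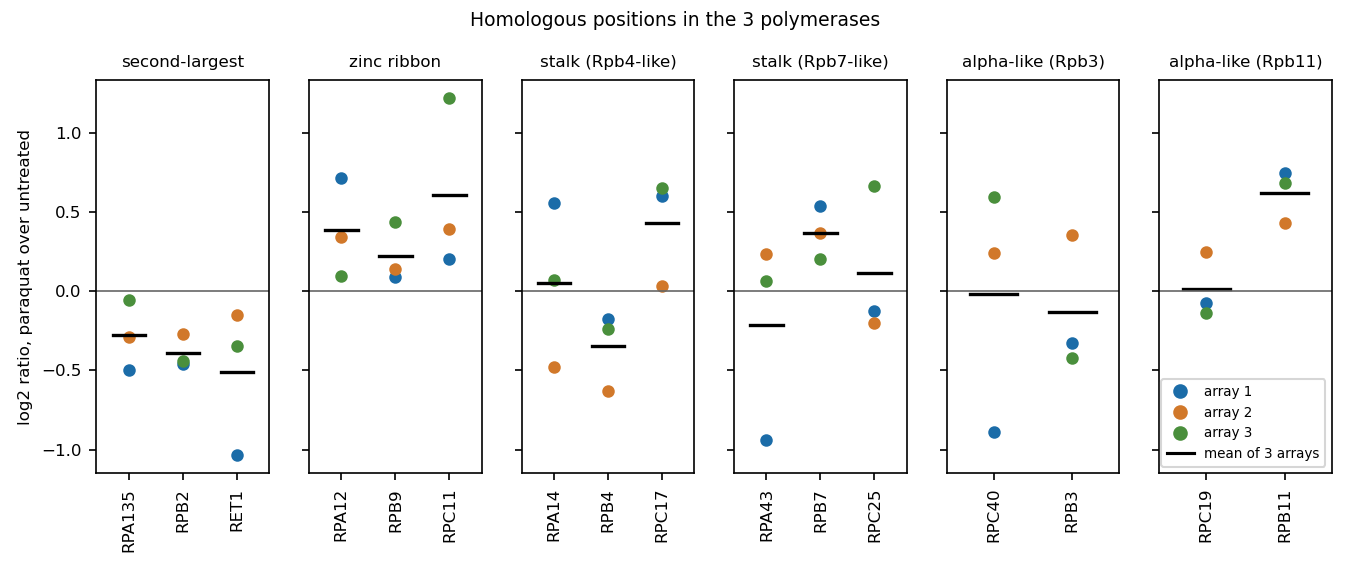
Log2 ratio (vertical axis) on the 3 arrays (points) and their mean (bar) for subunit genes at homologous positions (panels), ordered Pol I, II and III; RPC40 and RPC19 serve both Pol I and III. All points of the second-largest panel are below 0, all zinc-ribbon points are above 0, and the other positions hold both signs.

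General factors and regulators that work with the enzymes had more means below 0 than above. Of 40 such genes, 37 were tested, and 0 were called by limma over all features. Of the 37, 14 had a mean above 0, beside 49.2% of all features, and 23 below, with a median of -0.07. At an unadjusted p under 0.05, 1 of the 37 (2.70%) was above 0 beside 5.48% of all features, and 3 (8.11%) were below beside 5.29%. Above 0 on all arrays were 5 (13.5%) and below 0 on all arrays 14 (37.8%), beside 16.0% of all features in each direction. With the probe number trend removed, only RRN9, SUA7, TFG1, SPT5, TFC3 and TFC7 stayed below 0 on all arrays, beside 15.0% of all features. The median of the 37 was then -0.09, with 11 means above 0.

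For Pol I, 8 factors were tested with a median of -0.03. RRN3, which brings Pol I to its promoter and binds Rpa43, was at 0.30, 0.54 and 0.40, with a mean of 0.42 ± 0.12 (SD, n = 3 arrays, limma adjusted p = 0.454), above 0 on array 1, where RPA43 was far below it. RRN7 of the core factor averaged 0.31 and RRN9 of the upstream activating factor -0.10, each with one sign on all arrays. RRN6 of the core factor was at -0.70, -0.08 and -0.01, so that its mean of -0.26 rested on array 1 and was -0.05 without it.

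For Pol II, 19 factors were tested with a median of -0.05, and 7 (36.8%) were below 0 on every array, beside 16.0% of all features. With the trend removed, SUA7, TFG1 and SPT5 alone stayed below 0 on every array, beside 15.0% of all features, and the median was -0.09. TFG2 and TFG1, the subunits of TFIIF, were at -0.35, -0.14 and -1.67, and at -1.10, -0.09 and -0.33, with means of -0.72 and -0.51. One array was far below the others in each, array 3 for TFG2 and array 1 for TFG1, and without it the means were -0.25 and -0.21. With the trend removed, TFG2 was at 0.05, 0.15 and -1.56, and TFG1 averaged -0.41. TFG2 on array 3 and TFG1 on every array had a high power reading alone. SSL1 of TFIIH averaged -0.39, or -0.19 with the trend removed and -0.23 without array 1. TFA1, the large subunit of TFIIE, averaged -0.36, or -0.09 with the trend removed.

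For Pol III, 9 factors were tested with a median of -0.16. Of the 9 means, 7 were below 0, where 6 of the 7 means of Pol III subunits were above. Among those below 0 was MAF1, at a mean of -0.16, which is a repressor of Pol III and not a general factor. TFC3, TFC4 and TFC7, subunits of the DNA-binding factor TFIIIC, averaged -0.42, -0.32 and -0.22, each below 0 on every array, and TFC6 of the same factor averaged 0.21, above 0 on every array. With the trend removed, TFC4 averaged -0.13 and TFC6 0.03. SPT15, the TATA-binding protein used by all 3 enzymes, was at 0.36, 0.05 and 0.23, with a mean of 0.21 that was 0.08 with the trend removed.

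Of 8 genes for assembly and nuclear import of the polymerases, 2 had a mean above 0, beside 49.2% of all features, and 6 below. Their median was -0.12. NPA3, a GTPase of Pol II assembly and import, was at -1.30, -0.36 and -0.21, with a mean of -0.62 ± 0.59 (SD, n = 3 arrays, limma adjusted p = 0.295), and -0.28 without array 1. With the trend removed NPA3 averaged -0.35 and was at -0.00277 on array 3. Its relative GPN2 was at -0.71, -0.30 and -0.11, with a mean of -0.38. That mean was -0.21 without array 1 and -0.34 with the trend removed. Both were below 0 on all arrays and lowest on array 1.

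The 2 readings of an array mostly had the same sign for a subunit gene. Both readings existed for 19, 22 and 25 subunit genes on arrays 1, 2 and 3, their signs differed for 4, 1 and 4, and the median distance between them was 0.18, 0.17 and 0.19 on the log2 scale. On array 1 the 4 were RPB9, RPC31, RPC34 and RPO26, and RPC34 read 0.20 at high and -0.52 at low power. On array 2 it was RPB5. RPA34, RPA135, RPC37 and RPB10 were the 4 on array 3, where their averages lay between -0.05 and 0.14. Between arrays, Pearson r over the 27 genes was 0.15 for arrays 1 and 2, 0.36 for arrays 1 and 3 and 0.27 for arrays 2 and 3, a description across genes that share each array, with Spearman rho of 0.21, 0.44 and 0.28. Precision is limited by having only 3 arrays: the median SD of a subunit gene over the 3 arrays was 0.34, beside 0.30 over all features.

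**Figure D5:**
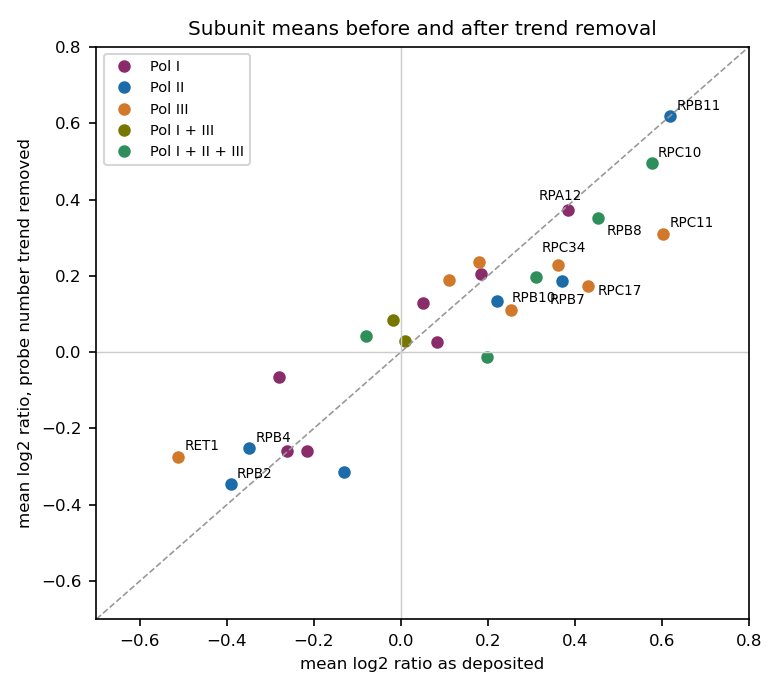
Mean log2 ratio of each subunit gene as deposited (horizontal axis) and with the trend over the probe number removed (vertical axis), coloured by enzyme, with a dashed line of equal values. RPB11 stays at 0.62, RPC11 goes from 0.60 to 0.31 and RET1 from -0.51 to -0.27.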

How the data were processed

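The authors deposited 1 log ratio per probe and scan, taken here as log2; per the labels, LOWESS normalization used spots with flag 0. Scanner software and log base: not given in the sources used here. Of 6912 probes, 761 had no value in any scan and 5513 had a gene symbol; RefSeq's R64 gene table gave current names. Probes with identical values in all scans counted as 1 feature. High and low power scans of an array were averaged, and features measured on every array (5693) were fitted against 0 with limma 3.58.1 in R 4.3.3 (lmFit and eBayes, two-sided, Benjamini-Hochberg over all features, threshold 0.05). The fit was tested on simulated arrays with independent noise and no probe number trend. Of changes of 0.5 and 1 on the log2 scale, 16.8% and 87.6% were called, with 11.2 unchanged features called per simulation. Lists are described by counts and medians, with no list test.

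Subunits, positions and other lists were chosen with earlier results of these data known. All measured subunits are named, with array values for means past 0.3 in size and for the largest, second-largest and zinc-ribbon positions. Up to 4 other genes per list are given with values, those of one sign on all arrays with the largest means. SUA7 and SPT5 are named only for their signs with the trend removed. MAF1 is named only as the repressor among the Pol III factors. The fit was repeated on high or low power scans only, with arrays centred or scaled, on features with all 6 scans or at least 2 arrays, with robust or no variance moderation, with removal of a trend over the probe number (which held 14.4%, 18.8% and 10.0% of the variance on arrays 1, 2 and 3) and leaving out each array. Promoter and protein sequences were not used here.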

Additional observations from a re-analysis of the deposited data

How the results depend on the processing

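By limma, 0 subunit genes were called in the fit reported (5 above and 1 below 0 at an unadjusted p under 0.05) and 0 under each of the 12 alternatives run, with the smallest adjusted p of a subunit gene between 0.14 (low power scans alone) and 0.826 (without array 1). Counts at an unadjusted p under 0.05 ranged from 2 above and 0 below with the trend removed (2 of 27, beside 4.32% of all features above) or on low power scans alone (2 of 16, beside 5.81%) to 5 above and 2 below of 27 on high power scans alone, beside 5.19% and 4.92% of all features. The median of all subunit genes was 0.0854 to 0.263 when 1 array was left out, and that of the subunits common to all enzymes 0.116 to 0.401. The Pol I median was then -0.0623 to 0.104, the Pol II median 0.0275 to 0.127, the Pol III median 0.268 to 0.296 and that of the subunits shared by Pol I and III -0.128 to 0.236. The Pol I median was -0.27 on features with all 6 scans, where RPA34 and RPA135 alone were left. Some signs turned with the processing. RPC40 went from -0.02 to 0.0649 on low power scans, 0.0449 with arrays centred and scaled and 0.084 with the trend removed. With the trend removed, RPB5 went from 0.20 to -0.0123 and RPO26 from -0.08 to 0.0429. Leaving out 1 array gave ranges across 0 for RPA14 (-0.202 to 0.315), RPA34 (-0.495 to 0.102), RPA43 (-0.441 to 0.148), RPA49 (-0.0623 to 0.317), RPB3 (-0.376 to 0.0137), RPC25 (-0.163 to 0.268), RPC31 (-0.0715 to 0.40), RPC19 (-0.108 to 0.0854), RPC40 (-0.325 to 0.417) and RPO26 (-0.195 to 0.0834). The cause of these turns was not tested.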
